A study of Rattus norvegicus with 12 samples.

Results

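Lungs of rats that lived at simulated high altitude with a daily period of continuous oxygen enrichment (C3) were set against lungs of rats kept at laboratory altitude (N). The comparison took the 3 C3 and 3 N libraries, 6 of the 12 in the study, by their group labels. All were made from total RNA of whole lung of adult SD rats (the strain name in the labels), after 2 weeks of exposure, with n = 3 per group. C3 rats lived in a hypobaric chamber at 405 mmHg, which stands for about 5000 m, and breathed 42% oxygen for 3 h per day without interruption, a gas that at this pressure equals roughly sea level. Rats of the hypoxia group (H) lived in the same chamber with no enriched gas, rats of the I3 group had the same gas for the same 3 h per day given intermittently, and N rats stayed at 400 m in 21% oxygen. The study's question was whether brief daily reoxygenation protects against pulmonary hypertension of high altitude. The comparison of C3 with N shows what still differed from normoxic lung in rats that had continuous enrichment.

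Lung arteries constrict when alveolar oxygen is low, and under lasting hypoxia their walls thicken and stiffen, which raises the pressure in the pulmonary circulation. Low oxygen also stabilises hypoxia-inducible factors, transcription factors that switch on genes of glycolysis, blood vessel growth and red cell production, and these factors are degraded again when oxygen returns. Whole lung holds alveolar and airway epithelium, endothelium, smooth muscle, fibroblasts, immune cells and blood. A change in whole-lung RNA can therefore come from fewer cells of a type or from less RNA per cell, and these cannot be told apart here.

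The deposited table lists 17254 rat Ensembl transcripts with a level in each library, taken as FPKM, that is, fragments corrected for transcript length and library size. It pairs no identifier with a gene, and the RefSeq table of 47357 rat genes could be matched to 0 of them, since it carries no rat Ensembl identifiers. Transcripts are therefore given by identifier, with no gene name or function, and lung markers could not be checked. Kept for testing were 15435 transcripts at 1 FPKM or more in at least 3 of the 12 libraries. At that threshold, the third highest library value of the nearest transcript was 1.00021 FPKM inside it and 0.999837 FPKM outside it. Through C3 libraries alone, 0 transcripts reached the threshold, and 8 did so through N libraries alone, 2 of which were called in C3 against N.

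The N libraries were spread more widely than the C3 libraries on the first principal component and in SD within the group, but not on the second component. On the first principal component of the kept transcripts, which held 15.1% of the variance, the C3 libraries lay at 21.2, 21.7 and 7.34, against -10.1, -60.3 and -35.6 for N replicates 1, 2 and 3. N replicates 2 and 3 thus lay farther from C3 than N replicate 1 did, with N replicate 3 between the other N libraries. H replicate 3 and I3 replicate 3 were far out on the second component (10.99% of the variance), at -36.4 and -39.4. Both enter the pooled spread of the fit. On that component C3 replicates 1, 2 and 3 lay at -8.22, 25.7 and 16.5, and were spread more widely than those of N. The N replicates lay there at 7.07, -10.2 and 5.75. Spearman correlations across transcripts, which are not independent replicates, were 0.92 to 0.93 between C3 libraries, 0.90 to 0.91 between N libraries and 0.88 to 0.91 between a C3 and an N library. The median SD of a transcript within the group, on the log2(FPKM + 1) scale, was 0.17 in C3 and 0.23 in N, and it was lower in C3 than in N for 60.5% of transcripts.

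Summed over all listed transcripts, the deposited values came to 330045, 323894 and 329823 FPKM in C3, against 337574, 361337 and 339032 FPKM in N. All 3 C3 sums lay below all 3 N sums, with means of 327921 ± 3489 FPKM in C3 and 345981 ± 13319 FPKM in N (SD, n = 3 each). The exact two-sided permutation test gave p = 0.1, the smallest p that 3 against 3 libraries allow. These sums do not measure depth, which is unknown. Transcripts listed at 0 numbered 560, 535 and 499 in C3, against 593, 543 and 570 in N. These ranges overlapped (exact permutation p = 0.2, two-sided). The 100 highest transcripts of a library held 22.6%, 22.1% and 22.9% of its sum in C3, against 23.8%, 23.3% and 22.2% in N. This share did not differ beyond the spread either (exact permutation p = 0.4, two-sided).

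At an adjusted p below 0.05 in limma, 168 transcripts differed between C3 and N, which is 1.09% of those tested. Of these, 75 were higher in C3 (0.486%) and 93 were lower (0.603%). The count was 28 without N replicate 2, 44 without N replicate 3 and 51 without H replicate 3 and I3 replicate 3. It also fell without single C3 libraries, as given with the plot of calls by library left out. The changes were of similar size in both directions. Leaving out the 2 called transcripts that were listed at 0 in all libraries of one group, the log2 changes ran from 0.45 to 3.63 among 74 that were higher, with a median of 0.98, and from 0.45 to 2.74 in size among 92 that were lower, with a median of -1.01. Before adjustment, 1097 transcripts were higher and 1591 lower at p below 0.05. After scaling of the libraries by median ratios these numbers were 1356 higher and 1259 lower, so the larger direction turned with the scaling. In limma the last transcript called had an adjusted p of 0.0492 (log2 change -0.78), and the first one not called had 0.0505 (log2 change -0.47).

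The C3 and N values chose the 2 lists, so their levels in these groups are given as a description and are no separate result. The transcripts called higher had a median group mean of 23.0 FPKM in C3 and 10.6 FPKM in N, and together they made up 1.08% of the mean summed values in C3 and 0.493% in N. The transcripts lower in C3 had medians of 6.40 FPKM in C3 and 14.6 FPKM in N, and made up 0.328% of the sum in C3 and 0.659% in N. Both lists were thus a small part of the RNA measured. The spread of the called transcripts, which were chosen by small p, is given as a description. Among those higher in C3, the median SD on the log2 scale was 0.12 in C3 and 0.17 in N, and among those lower it was 0.16 in C3 and 0.18 in N.

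**Figure D1:**
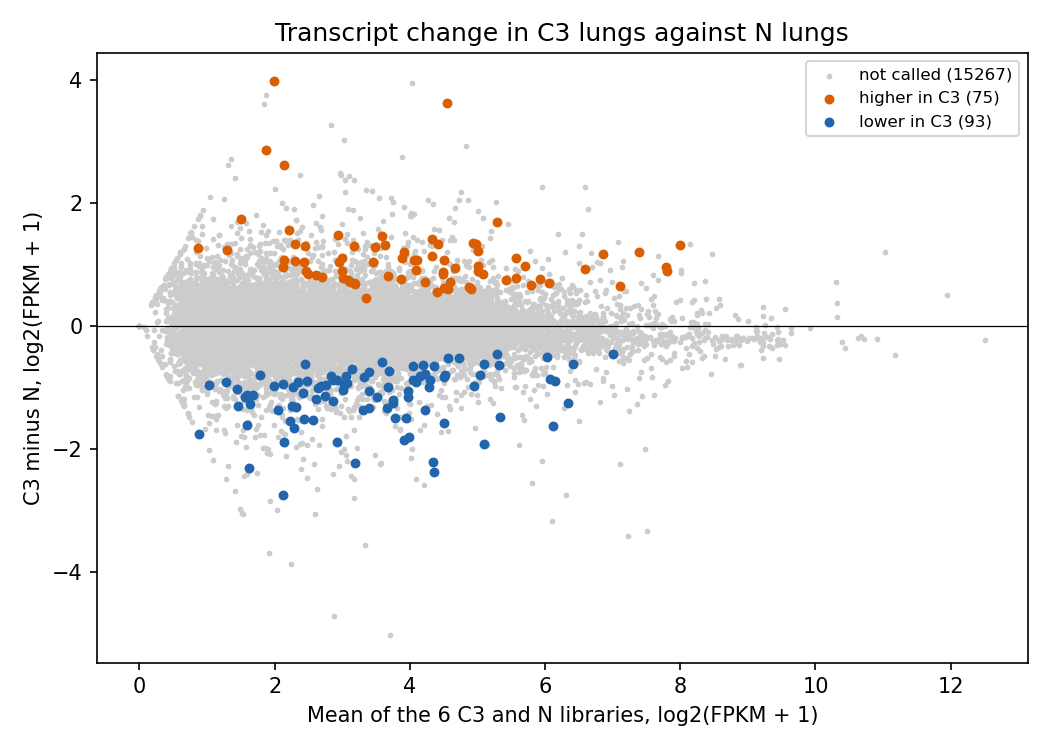
Each point is 1 of the 15435 tested transcripts, with its mean level over the 6 C3 and N libraries on the horizontal axis and the C3 minus N difference on the vertical axis, both in log2(FPKM + 1). The 75 called higher and 93 called lower transcripts are coloured, and many points with large differences are not called.

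With all 12 libraries, calls were more frequent among transcripts of higher level. Of the 2737 tested transcripts with a mean below 2 FPKM over the 12 libraries, 2 were called higher and 5 lower in C3. Between 2 and 10 FPKM, 25 of 6394 were higher and 44 lower. Between 10 and 50 FPKM, 34 of 5151 were higher and 37 lower, and at 50 FPKM or more, 14 of 1153 were higher and 7 lower. The share called was thus 0.256% in the lowest class and 1.82% in the highest, where the 95% interval of a log2 change had a median half-width of 0.64 and 0.35. In the highest class the numbers before adjustment ran the other way, with 99 higher and 208 lower at p below 0.05, and the median of all its log2 changes was -0.12, against -0.04 over all transcripts tested. With the libraries scaled by median ratios, the medians were -0.08 in the highest class and -0.00472 over all transcripts. Without N replicate 2, whose sum was the highest of all libraries, the highest class had a median of -0.07, with 1 call higher and 0 lower in limma, and before adjustment 67 higher and 130 lower at p below 0.05. Without N replicate 3 it also had 1 call higher and 0 lower in limma (before adjustment 94 higher and 184 lower, median -0.14). Without N replicate 1 it had 14 calls higher and 16 lower, so the larger direction of its calls turned in that fit. Before adjustment that class had 106 higher and 283 lower, and its median was -0.17. The rise of the share called with level did not hold without N replicate 2 or without N replicate 3. Each of those 2 fits had 1 call of 1153 in the highest class. Between 10 and 50 FPKM, of 5150 tested, they called 13 higher and 6 lower, and 15 higher and 8 lower.

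Separation of the libraries was far more common than a call. All 3 C3 libraries lay above all 3 N libraries for 10.9% of the transcripts tested and below them for 15% (2319 transcripts), and all 168 called transcripts were among these 3995. After median ratio scaling the shares were 13.0% above and 12.6% below, so the larger direction changed with the scaling. The same scaling gave 84 calls higher and 77 lower, against 75 and 93 as deposited, which also turned the larger direction. It moved the median log2 change of all transcripts by 0.04.

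Most large differences were not called. A log2 change of 2 or more in size was seen for 94 transcripts, 38 of them higher in C3 and 56 lower. Only 9 of the 94 were called, and of the other 85, 45 had no overlap between the C3 and the N libraries. At 1 or more in size the numbers were 749 transcripts, 85 of them called.

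The transcript with the largest difference among those called higher was ENSRNOT00000076987. It had 26.7, 6.48 and 18.2 FPKM in the C3 libraries and was listed at 0 in all 3 N libraries. A listed 0 can be a failed estimate, so no fold change is given. The groups did not overlap, and C3 replicate 2 was the lowest of the C3 libraries. Its adjusted p was 0.0369 in limma. This call was lost without any 1 of the C3 or N libraries (adjusted p 0.0671 to 0.117 in limma). Leaving out an N library did not change the C3 minus N difference, since all 3 were at 0. Those losses therefore need not rest on the library left out. The call was also lost in limma without H replicate 3 and I3 replicate 3 together (adjusted p = 0.0637) and with a replicate block (0.0777). In H it was listed at 0 in replicate 1 and had 4.88 and 6.81 FPKM in the other libraries, and in I3 it had 17.5, 6.60 and 12.5 FPKM.

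ENSRNOT00000090914 came next among those higher in C3. It had 98.7, 85.9 and 64.0 FPKM in C3, against 4.85, 4.52 and 8.26 FPKM in N. The groups lay far apart, with the lowest value of C3 well above the highest of N. The log2 change was 3.63 ± 0.54 (SE), with an adjusted p of 0.0205 in limma. The call was lost without C3 replicate 1 (adjusted p = 0.0635 in limma), C3 replicate 2 (0.0798) or N replicate 2 (0.0788), and with a replicate block (0.0551). Without N replicates 2 and 3 together, which leaves 1 N library, the log2 change was 3.82. In H it ranged from 19.4 to 114 FPKM and in I3 from 21.2 to 44.3 FPKM, so the H libraries reached both below and above those of C3.

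ENSRNOT00000026473 had the largest difference among those lower in C3. It had 0.737, 0.548 and 0.799 FPKM in C3, against 32.8, 6.09 and 5.05 FPKM in N. The C3 libraries were all below 1 FPKM, while N replicate 1 stood several times above both other N libraries. The log2 change was -2.74 ± 0.52 (SE; adjusted p = 0.0419 in limma). Without N replicate 1 it was -1.95 (adjusted p = 0.00483 in limma). The call was lost without any 1 C3 library (adjusted p 0.1 to 0.158 in limma) and without N replicate 2 (0.0792) or N replicate 3 (0.0516). It was also lost in limma without H replicate 3 and I3 replicate 3 together (adjusted p = 0.0975) and with a filter at 5 FPKM (0.0609). The same held in limma with a replicate block (adjusted p = 0.0687) and with C3 and N as the only groups in the fit (0.174).

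ENSRNOT00000024781 was next among those lower in C3 and had the smallest p of all transcripts tested. It had 7.02, 8.001 and 9.18 FPKM in C3, against 43.4, 49.3 and 44.3 FPKM in N. Both groups were narrow and lay far apart, with means of 8.07 ± 1.08 FPKM in C3 and 45.7 ± 3.16 FPKM in N (SD, n = 3 each). The log2 change was -2.37 ± 0.13 (SE; adjusted p = 6.87e-05 in limma). It kept the call in each of the 15 alternatives run for it (highest adjusted p, 0.00906). Its means were 8.85 ± 0.98 FPKM in H and 7.79 ± 1.05 FPKM in I3 (SD, n = 3 each). The difference between C3 and H was -0.12 on the log2 scale (95% interval -0.41 to 0.17), and that between C3 and I3 was 0.05 (-0.24 to 0.33).

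**Figure D2:**
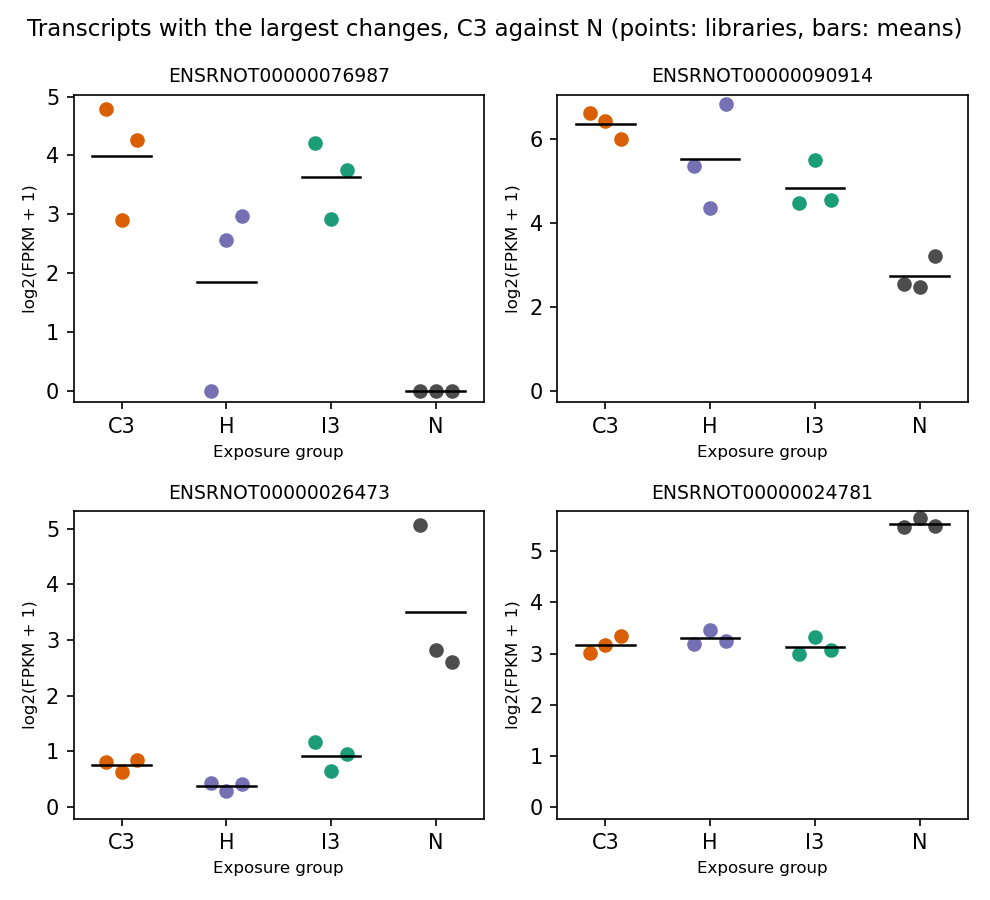
Levels of the 4 transcripts named above in log2(FPKM + 1) on the vertical axis, by exposure group on the horizontal axis, with 1 point per library and a bar at the mean of the 3 libraries. ENSRNOT00000024781 shows narrow groups, with N at 45.7 FPKM and the hypoxic groups at 7.79 to 8.85 FPKM, while N replicate 1 stands apart for ENSRNOT00000026473.

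How the calls changed without single libraries was examined by leaving each C3 or N library out in turn. Each such fit also has fewer libraries from which to estimate the spread. A lost call therefore need not rest on the library left out. The count of 168 became 35 without C3 replicate 1, 21 without C3 replicate 2, 56 without C3 replicate 3, 166 without N replicate 1, 28 without N replicate 2 and 44 without N replicate 3. Of the 168 transcripts themselves, 23, 16 and 46 kept the call without C3 replicates 1, 2 and 3, and 102, 24 and 32 without N replicates 1, 2 and 3. N replicate 1 lay nearest to the hypoxic libraries on the first component, and its loss changed the count least. Even so, 66 of the 168 calls were lost without it, 2 of them because they were no longer tested. A fit without N replicates 2 and 3, the N libraries farthest from C3 on the first component, was also run. It leaves 1 N library that is assumed to vary like the other groups.

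**Figure D3:**
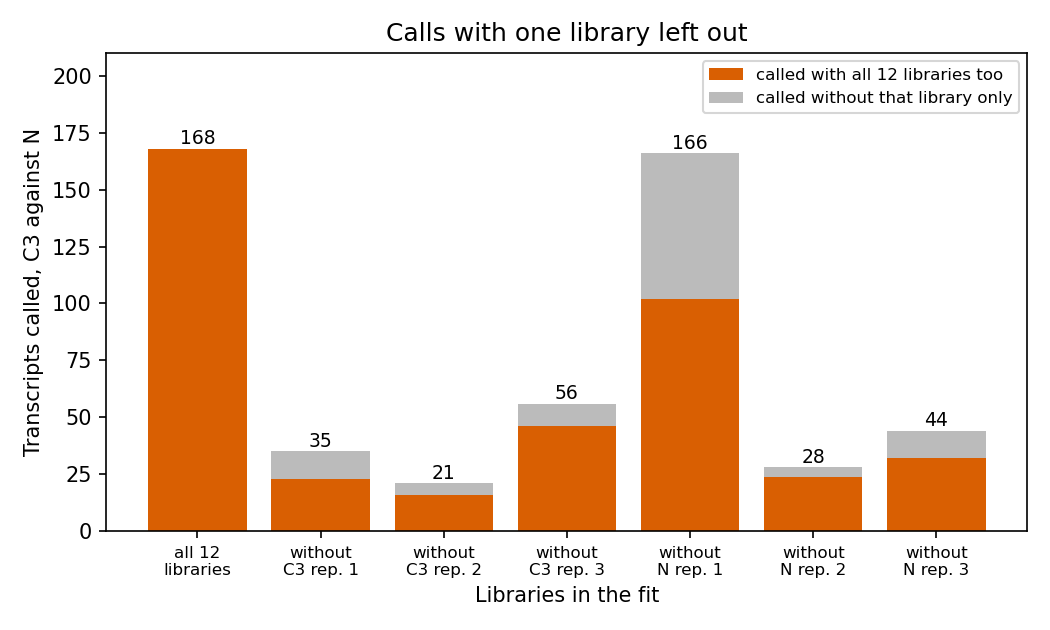
Number of transcripts called in C3 against N on the vertical axis, with all 12 libraries and with each C3 or N library left out (horizontal axis). The coloured part counts transcripts that are also among the 168 called with all libraries, between 16 and 102 of them, and the grey part counts other transcripts.

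Few of the transcripts kept the call in every one of these fits. In all 6, 13 transcripts remained called, 9 higher and 4 lower in C3, while 60 of the 168 were called in 0 of the 6. The 2 called transcripts kept through N libraries alone fell below the filter without any 1 N library. They were not tested in those fits and are counted as not called. The 9 that were higher had values between 6.27 and 31.4 FPKM in the C3 libraries and between 0.212 and 19.2 FPKM in the N libraries, with log2 changes from 0.71 to 2.85. The 4 that were lower had values between 1.41 and 10.7 FPKM in C3 and between 7.54 and 49.3 FPKM in N, with log2 changes from -1.05 to -2.37. ENSRNOT00000024781 is one of these 4. In each of 14 alternatives, which leave aside the loss of both N replicates, 8 of the 9 and 2 of the 4 were called. With that loss counted too, 2 of the 9 and 1 of the 4 were called under every alternative.

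The other exposures share the N libraries with this comparison, so a chance value in N moves all of them alike, and their changes are given side by side with no test. For the 75 transcripts higher in C3, the median log2 change against N was 0.98 in C3, 0.89 in H and 0.72 in I3. For the 93 that were lower it was -1.02 in C3, -0.73 in H and -0.64 in I3. The C3 values chose these transcripts, so their greater distance from 0 is no result. Over all transcripts tested the medians were -0.04 in C3, -0.02 in H and -0.02 in I3. By library, the mean log2 level of the 75 was 4.68, 4.66 and 4.59 in C3, 4.46, 4.40 and 4.58 in H, 4.37, 4.35 and 4.28 in I3, and 3.60, 3.43 and 3.55 in N. Each of the 6 H and I3 libraries lay above every N library and below every C3 library. Transcripts chosen for high C3 and low N values favour such a place for any other library, so nothing is read from this order.

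**Figure D4:**
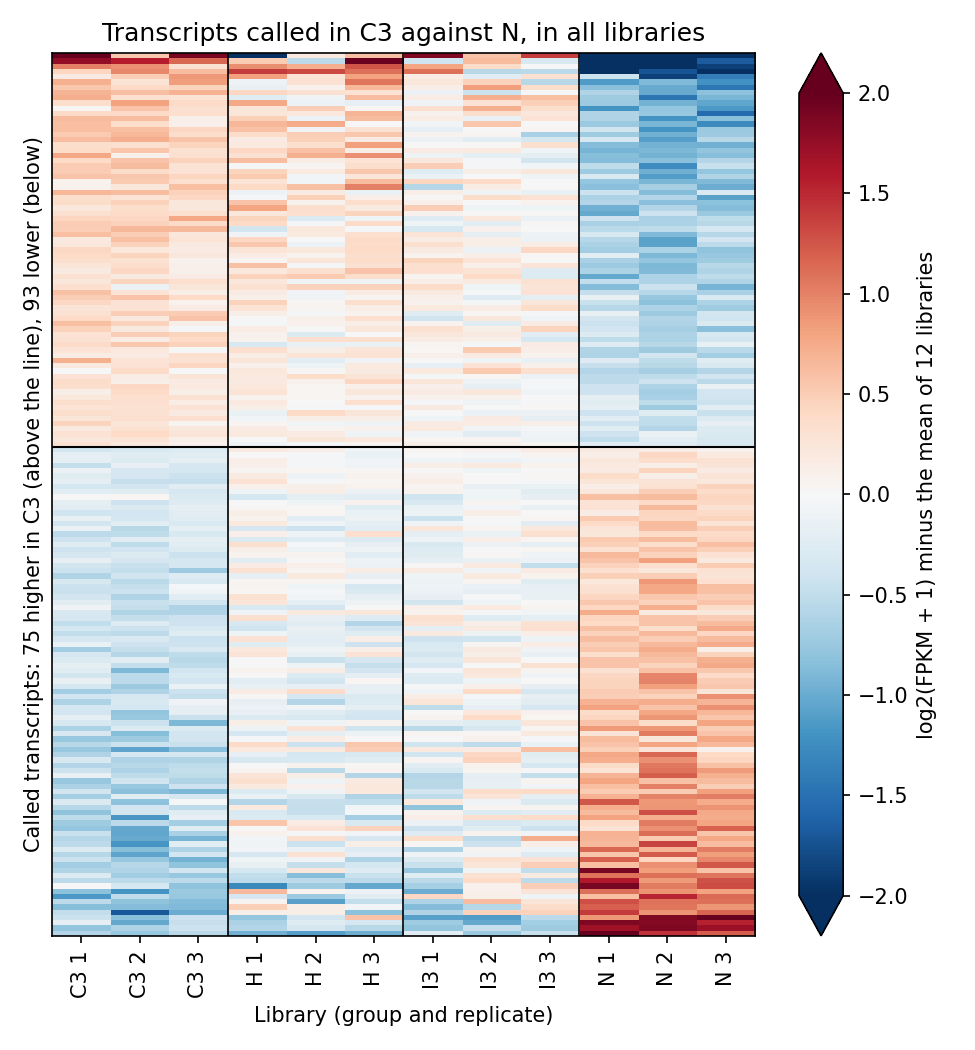
Each row is 1 of the 168 transcripts called in C3 against N, ordered by log2 change, and each column is 1 of the 12 libraries. Colour gives log2(FPKM + 1) minus the mean of the 12 libraries. C3 and N chose the rows and contrast for that reason. That choice also favours a place between them for the H and I3 columns, whose medians were 0.89 and 0.72 above N for the 75 higher transcripts. Among these 75, C3 was below H for 21 and below I3 for 7.

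Whether the change in C3 differs from that in H was tested by C3 against H directly, since the N libraries drop out of that difference. Of all transcripts, 2 passed (0.013%), and of the 168 called against N, 0 did. Before adjustment in limma, 53 of the 168 (31.5%) had p below 0.05 in this contrast, against 1059 (6.86%) of all transcripts tested, and here too the C3 libraries that chose the 168 enter again. The 95% interval of a C3 minus H difference had a median half-width of 0.37 on the log2 scale over the 168. The median C3 minus H difference was 0.12 over the 75 higher transcripts, with 54 above 0 and 21 below, and -0.33 over the 93 lower ones, with 8 above 0 and 84 below. Over all transcripts tested it was -0.02, with 7181 above 0 and 8248 below. The C3 libraries that chose both lists enter this difference, so nothing is read from these values. The same test of C3 against I3 passed 1 transcript of all (0.00648%) and 0 of the 168. Before adjustment in limma, 71 of the 168 (42.3%) had p below 0.05 against I3, as did 1026 (6.65%) of all transcripts tested, with the same C3 libraries in the choice and in the contrast.

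ENSRNOT00000017867 had the smallest p against H among the called transcripts that were higher in C3 than in H. It had 9.05, 10.2 and 9.51 FPKM in C3, 5.17, 5.89 and 6.01 FPKM in H, 6.95, 6.45 and 7.62 FPKM in I3, and 5.44, 4.21 and 5.91 FPKM in N. All C3 libraries lay above all others, and H overlapped N. Against N the log2 change of C3 was 0.78 ± 0.13 (SE, adjusted p = 0.0247 in limma). That call was lost without C3 replicate 1 (adjusted p = 0.0635 in limma), C3 replicate 2 (0.117), C3 replicate 3 (0.0738) or N replicate 2 (0.0725). It was also lost in limma without H replicate 3 and I3 replicate 3 together (adjusted p = 0.0573) and with a replicate block (0.0584). The same held with C3 and N as the only groups in the fit (adjusted p = 0.112 in limma). Without N replicates 2 and 3 together, which leaves 1 N library, the log2 change against N was 0.71. Against H the log2 change of C3 was 0.66 ± 0.13 (SE), and did not pass over all transcripts (adjusted p = 0.621 in limma).

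ENSRNOT00000046539 had the smallest p in the opposite direction, both against H and against I3. It had 7.36, 5.80 and 6.88 FPKM in C3, 15.2, 15.2 and 18.8 FPKM in H, 15.2, 14.9 and 20.4 FPKM in I3, and 18.6, 16.0 and 13.9 FPKM in N. The 3 C3 libraries were the lowest of the 12, and the other groups overlapped each other. Its log2 change against N was -1.16 ± 0.16 (SE, adjusted p = 0.0161 in limma) in C3 and 0.02 ± 0.16 (SE, adjusted p = 0.985 in limma) in H. The C3 minus H difference was -1.18 (95% interval -1.53 to -0.83) and the C3 minus I3 difference -1.21 (-1.56 to -0.86), and neither passed over all transcripts (adjusted p = 0.0771 and 0.0826 in limma). With only transcripts at 5 FPKM or more tested, both passed in limma (adjusted p = 0.0452 against H and 0.0485 against I3). In the other 13 alternatives of each contrast they did not pass, with adjusted p up to 0.337 against H (without H replicate 3) and up to 0.297 against I3 (without C3 replicate 2) in limma. The call against N was lost without C3 replicate 2 (adjusted p = 0.0722 in limma) or N replicate 2 (0.0608), without N replicates 2 and 3 together (0.0665) and with C3 and N as the only groups in the fit (0.0612).

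ENSRNOT00000013058 had the smallest p against I3 among the called transcripts that were higher in C3 than in I3. It had 12.05, 11.3 and 12.1 FPKM in C3, 9.82, 8.99 and 8.95 FPKM in H, 6.48, 5.01 and 6.998 FPKM in I3, and 4.33, 3.04 and 3.59 FPKM in N. No 2 groups overlapped, with C3 highest, then H, I3 and N. The log2 change of C3 against N was 1.47 ± 0.14 (SE, adjusted p = 0.00374 in limma), and this transcript is among the 13 that kept the call without any 1 C3 or N library. The C3 minus I3 difference of 0.85 (95% interval 0.55 to 1.15) did not pass over all transcripts (adjusted p = 0.228 in limma).

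The transcripts that did pass against H or I3 were ones in which C3 did not pass against N, and they were named after their values were seen. ENSRNOT00000034708 had 4.24, 3.76 and 2.97 FPKM in C3, 10.3, 11.7 and 11.3 FPKM in H, and 3.28, 3.83 and 3.68 FPKM in N. C3 and N overlapped and H lay above both. The log2 change of C3 was -1.38 ± 0.12 against H (SE, adjusted p = 0.00882 in limma) and 0.01 against N, with a 95% interval of -0.27 to 0.29. ENSRNOT00000080270 had 103, 73.6 and 90.7 FPKM in C3, 8.99, 5.16 and 6.98 FPKM in H, and 108, 42.4 and 132 FPKM in N. C3 lay within the range of N, which was wide, and H lay below both. Its log2 change in C3 was 3.50 ± 0.36 against H (SE, adjusted p = 0.0132 in limma) and 0.06 against N, with a 95% interval of -0.73 to 0.85. The call against H was lost for both without H replicate 2 (adjusted p = 0.0756 for each in limma), and for the second also without H replicate 3 (0.0717). Without H replicate 3 and I3 replicate 3 together it was lost for both (adjusted p = 0.0942 and 0.135 in limma), and with C3 and H as the only groups in the fit it was lost for ENSRNOT00000034708 (0.0541).

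ENSRNOT00000041915 was the transcript that passed against I3. It had 28.7, 29.1 and 29.7 FPKM in C3, 10.5, 9.42 and 7.94 FPKM in I3, and 32.8, 32.0 and 27.6 FPKM in N. C3 lay within the range of N and I3 lay well below. The log2 change of C3 was 1.56 ± 0.14 against I3 (SE, adjusted p = 0.00862 in limma) and -0.08 against N, with a 95% interval of -0.39 to 0.24.

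**Figure D5:**
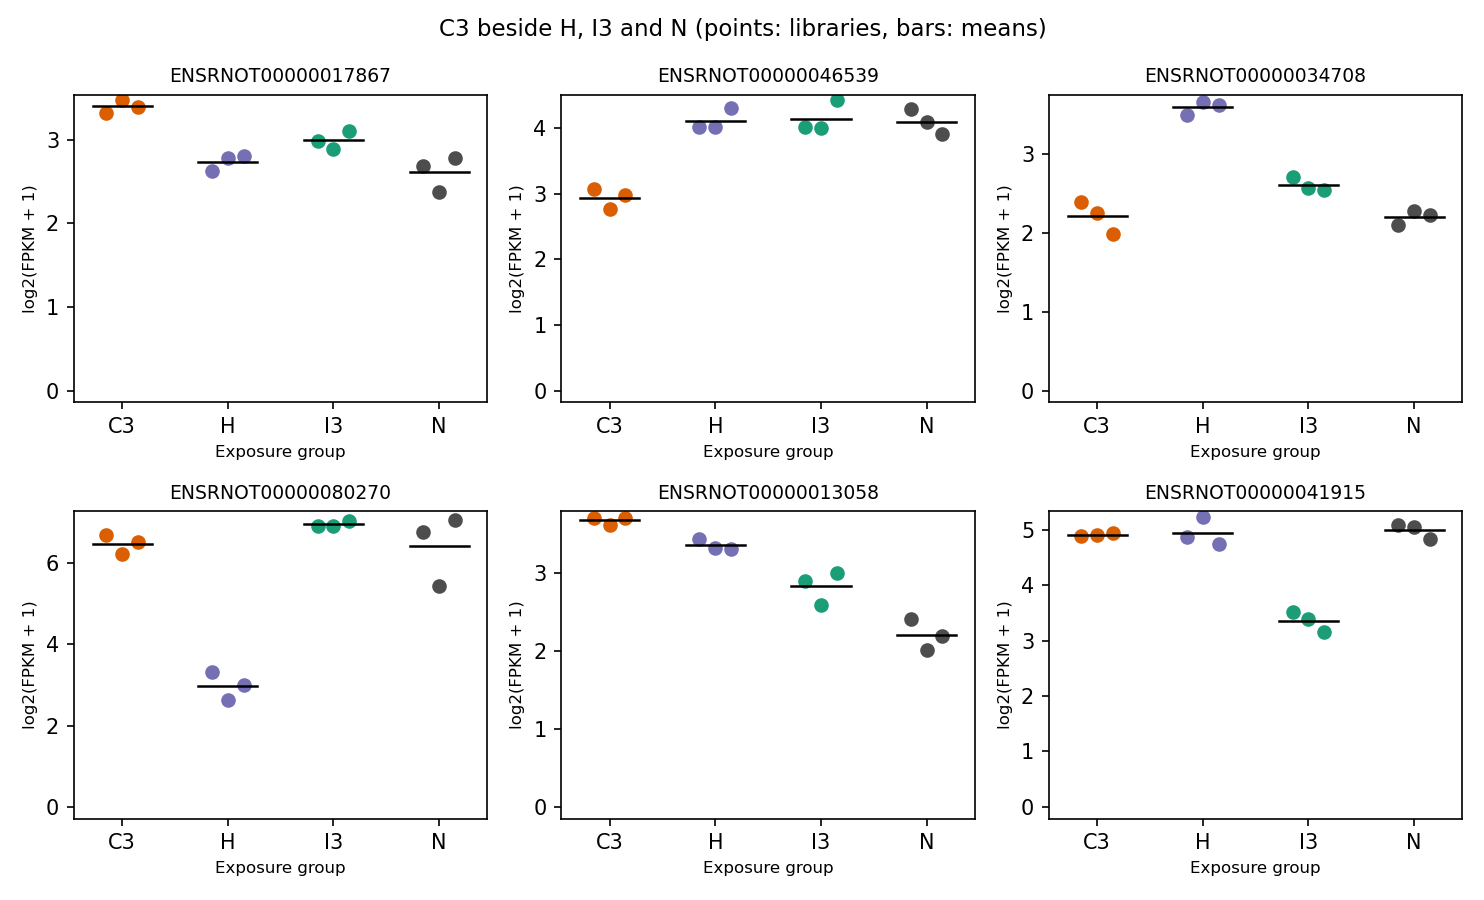
Levels of 6 transcripts in log2(FPKM + 1) on the vertical axis, by exposure group on the horizontal axis, with 1 point per library and a bar at the mean of the 3 libraries. C3 stands apart from the other groups for ENSRNOT00000017867, ENSRNOT00000046539 and ENSRNOT00000013058. These were chosen for the smallest p against H or I3 among the called transcripts, which favours such a place, and did not pass there. H stands apart for ENSRNOT00000034708 and ENSRNOT00000080270, and I3 stands apart for ENSRNOT00000041915.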

How the data were processed

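The authors deposited one table of transcript values for all 12 libraries. Its header gives no unit. The deposited values were read as FPKM, the usual output of StringTie, which the submitters' processing notes list beside cutadapt and HISAT2 2.0.5, with no order or settings. TPM of a partial list cannot be told apart. The genome build in those notes is human, and the rat build and annotation are not given in the sources used here. Coordinates and sequences are therefore not printed. Per the labels' protocols, the second strand was made with dUTP. Use of strand in the counting is not given. Transcripts of one gene, overlapping genes and near-identical copies share reads, which such a program divides by estimation.

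Depth is unknown: low values reached 1e-06, and no single step between libraries stood out among them (over 66 pairs, at most 4.90% of log2 ratios fell in one bin of width 0.02), so whole reads were not recovered. Precision rests on 3 libraries per group. Separate rats per library are not stated, so p-values measure the spread between libraries.

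In R 4.3.3, limma 3.58.1 was run on log2(FPKM + 1) of all 12 libraries with the 4 groups as factor levels, a mean-variance trend and 8 residual degrees of freedom. A change on this scale understates that of low transcripts. Two-sided p-values were adjusted by Benjamini-Hochberg over all 15435 transcripts. In fits with fewer libraries the filter counted the libraries of the fit. Single values per library were compared by exact permutation.

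Named transcripts are the 2 called higher and 2 called lower with the largest log2 change, and, against H and I3, the called transcript of smallest p in each direction, since none of them passed there. Members, lists and tests were chosen with earlier results of these data known. Gene lists and markers were not used for want of gene names. Alternatives were median ratio scaling, another pseudocount (0.1), a filter at 5 FPKM or none, no trend, fits of 2 groups, a replicate block and fits without libraries.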

Additional observations from a re-analysis of the deposited data

Results flagged for a closer look

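The changes against N differed between C3 and another exposure, by the test of the difference itself, for 3 transcripts. For ENSRNOT00000034708 the C3 minus H difference was -1.38 on the log2 scale, with 3.66 ± 0.64 FPKM in C3, 11.1 ± 0.74 FPKM in H and 3.60 ± 0.29 FPKM in N (SD, n = 3 each). For ENSRNOT00000080270 it was 3.50, with 89.1 ± 14.7 FPKM in C3, 7.05 ± 1.91 FPKM in H and 94.0 ± 46.3 FPKM in N. For ENSRNOT00000041915 the C3 minus I3 difference was 1.56, with 29.1 ± 0.52 FPKM in C3, 9.29 ± 1.29 FPKM in I3 and 30.8 ± 2.79 FPKM in N. Both calls against H were lost without H replicate 2 (adjusted p = 0.0756 for each in limma), among other settings. The call against I3 was kept in each of the 14 alternatives.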

How the results depend on the processing

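The count of 168 for C3 against N stayed within 1.5 times its value with median ratio scaling (161), with a pseudocount of 0.1 (170), with no mean-variance trend (157), without a filter (158) and with one at 5 FPKM (191). It was 44 with C3 and N as the only groups in the fit and 51 without H replicate 3 and I3 replicate 3, which lay far out on the second component. Leaving out single C3 or N libraries gave 21 to 166. Without N replicates 2 and 3 together, chosen after seeing the data, it was 47. The count of 2 for C3 against H was 4 with the filter at 5 FPKM, 14 with these groups alone and 1 without H replicate 3 and I3 replicate 3, and 0 to 12 without single C3 or H libraries (0 in limma without H replicate 2, with 996 at an unadjusted p below 0.05). The count of 1 for C3 against I3 was 3, 15 and 4 under the same settings in that order, and 2 to 7 without single C3 or I3 libraries. The causes were not tested. The differences in summed values, transcripts at 0 and share of the 100 highest kept their sign under each alternative run, and their p could not pass the threshold. No named transcript changed direction under any alternative run. Every value is limited by the unknown depth.

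The replicate numbers are digits of the titles, and no label ties them across groups. Deviations of same-numbered C3 and N libraries correlated with r from -0.04 to 0.02, and 2 of the 6 libraries had their own number as the best match. Over all 18 same-numbered pairs of the 4 groups, r ran from -0.04 to 0.13. H replicate 3 and I3 replicate 3, which share a number, both lay far out on the second component (-36.4 and -39.4). The numbers were not used as pairs in the main fit. With a replicate block the count for C3 against N was 25, each of them among the 168.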

Other observations

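A listed 0 in a whole group was rare among the transcripts tested. Above 0 in all C3 libraries and at 0 in all N libraries were 7 transcripts, with values up to 26.7 FPKM in C3, and 1 of them, ENSRNOT00000076987, was called. At 0 in all C3 libraries and above 0 in all N libraries were 4 transcripts, with values up to 4.81 FPKM in N, and 1 of them was called. Of all 168 called transcripts, 4 had a 0 in at least 1 C3 or N library.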
